A study of Mus musculus with 17 samples.

Results

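Expression of 9 genes of the Notch pathway was followed in mouse adult neural retinal progenitor cells (mNRPCs), out of 18836 genes listed in at least 1 RNA-seq library. The genes were chosen by symbol, with no rule on their values but with earlier results of these data known. They were the receptors Notch1, Notch2 and Notch3, the ligands Dll1, Dll3 and Jag1, and the target genes Hes1, Hes5 and Hey1. The cells came from the neural retina of adult C57BL/6 mice and were propagated in the study with bFGF and CHIR99021. bFGF is basic fibroblast growth factor, a mitogen of neural progenitors, and CHIR99021 is an inhibitor of glycogen synthase kinase that raises β-catenin signaling. There were 17 libraries: 1 of day 0, for which the labels give no treatment and which the study calls in one place a BM culture and in another a sample from before treatment, and 1 for each of 4 media on days 1, 3, 5 and 7. The media were basic medium alone (BM) and the same medium with bFGF added (B), with CHIR99021 added (C) or with the pair of them added (BC). The study describes the cells as a line, and the number of mice behind it is not given in the sources used here.

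Notch receptors sit on the cell surface and are bound by Delta-like and Jagged ligands on neighbouring cells. Binding leads to cleavage by ADAM proteases and then by the γ-secretase complex, and the released intracellular part joins RBPJ and a Mastermind protein on DNA to switch on target genes. The Hes and Hey targets are repressors that hold proneural factors down, and in the developing retina the pathway is known for keeping progenitors undifferentiated and for favouring Müller glia.

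No treatment and day had a replicate. The 2 libraries of a day with bFGF (B and BC) were therefore set against the 2 without (BM and C), and the p-values measure the spread that remains after an additive CHIR99021 term, not the spread between separate cultures. Total expected counts ran from 17571973 to 19428744 per library, so depth differed little. FPKM, a level scaled by transcript length and by the mapped reads of the library, is used for levels, and log2 fold changes are from edgeR on counts with TMM scaling. Of the progenitor markers, Pax6, Six3, Sox2, Nes and Lhx2 reached an FPKM of 1 in at least 1 library, but Rax and Six6 stayed below 1 in all 17, and no astrocyte or photoreceptor marker examined reached 1. The TMM factors of the B and BC libraries were 0.803 and 0.816 on day 5 and 0.793 and 0.754 on day 7, and those of BM and C were above 1. Fewer cells of a type and less RNA per cell cannot be told apart in such bulk samples.

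Promoter windows from RefSeq (GRCm38.p6, 250 bases before to 50 after a start site) were at hand for 7 of the 9 genes, as 8 windows. Hes1 and Hey1 had no window, so the counts below say nothing about these targets. The 8 windows were searched on both strands for TGGGAA, the core that RBPJ is known to bind, and for TGANTCA, the AP-1 motif, bound by factors that growth factor signaling is known to induce. Neither motif overlapped the other. TGGGAA was found in 1 of the 8 windows, that of Hes5, against 25.6% of 32851 windows in the mouse table. Hes5 held it on both strands, with first bases at -226 and -82 from the start site, and it is shown as the only one of these windows with the motif. TGANTCA was found in 1 of the 8 windows, 1 of the pair of Dll1, against 7.81% of all. The windows of Notch1, Notch2 and Jag1, the receptors and the ligand that differed most with bFGF below, held neither motif and are given for comparison, all in lower case; the capitals in Hes5 mark TGGGAA or its reverse complement. A match is a run of letters only, and its absence concerns these windows alone.
Hes5, chr4:154960673-154960972, plus strand: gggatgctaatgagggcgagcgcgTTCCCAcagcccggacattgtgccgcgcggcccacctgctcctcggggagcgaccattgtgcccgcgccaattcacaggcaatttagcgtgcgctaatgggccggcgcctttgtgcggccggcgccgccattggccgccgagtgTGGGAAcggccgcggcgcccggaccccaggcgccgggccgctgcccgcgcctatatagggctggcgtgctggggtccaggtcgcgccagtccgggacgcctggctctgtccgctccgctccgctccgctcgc
Notch2, chr3:98013288-98013587, plus strand: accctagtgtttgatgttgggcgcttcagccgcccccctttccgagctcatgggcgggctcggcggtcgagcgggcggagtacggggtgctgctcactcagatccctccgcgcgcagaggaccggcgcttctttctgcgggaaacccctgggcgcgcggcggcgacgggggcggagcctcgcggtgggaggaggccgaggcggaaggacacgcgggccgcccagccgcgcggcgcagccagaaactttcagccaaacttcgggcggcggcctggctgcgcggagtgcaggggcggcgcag
Notch1, chr2:26503773-26504072, minus strand: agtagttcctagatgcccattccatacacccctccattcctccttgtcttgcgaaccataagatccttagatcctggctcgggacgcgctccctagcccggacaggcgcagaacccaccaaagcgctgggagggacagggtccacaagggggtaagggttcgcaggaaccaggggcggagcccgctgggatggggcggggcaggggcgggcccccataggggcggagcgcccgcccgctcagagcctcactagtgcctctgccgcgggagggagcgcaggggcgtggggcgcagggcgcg
Jag1, chr2:137116471-137116770, minus strand: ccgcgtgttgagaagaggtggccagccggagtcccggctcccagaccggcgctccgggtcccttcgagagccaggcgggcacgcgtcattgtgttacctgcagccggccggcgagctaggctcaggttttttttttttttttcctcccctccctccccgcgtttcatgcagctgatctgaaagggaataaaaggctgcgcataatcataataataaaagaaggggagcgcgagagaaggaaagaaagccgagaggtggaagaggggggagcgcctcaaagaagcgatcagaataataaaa

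Of the receptors, Notch2 and Notch1 were lower with bFGF from day 3 on, and Notch3 was higher on day 3. Notch2 (gene 18129, chr3:98013538-98150367) was the most abundant of the 9 in 12 of the 17 libraries, and Hes1 was in the other 5. Notch2 stood at an FPKM of 16.8 on day 0 and at 31.3, 193, 122 and 112 in BM on days 1, 3, 5 and 7. In C it stood at 32.0, 178, 102 and 98.3 on the same days. With bFGF it stood at 17.9, 28.5, 8.86 and 6.37 in B and at 16.9, 53.5, 16.4 and 6.71 in BC. Both libraries with bFGF lay below both without on every day. From day 3 onwards the lowest value without bFGF was 98.3 and the highest with it was 53.5. The fitted log2 fold change with bFGF was -2.27 ± 0.13 (SE) over days 1 to 7, with an adjusted p of 8.90e-09 by edgeR's quasi-likelihood test with Benjamini-Hochberg adjustment. By day it was -0.78 on day 1, -2.11 on day 3, -2.74 on day 5 and -3.47 on day 7. The last value is 11.1-fold lower after TMM scaling. In FPKM, which carries no TMM scaling, the day 7 ratio was 0.0569 for B to BM and 0.0683 for BC to C. The day 1 value did not pass (adjusted p = 0.0727 by edgeR), and the other 3 days did. In B on days 5 and 7 and in BC on day 7, Notch2 lay below its day 0 level, and in BM and C it lay above that level on all days. In BC on day 5 it was near that level, with a log2 difference of -0.03, where the median gene was at -0.24. Day 0 is 1 library, so these differences have no replicate check.

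**Figure D1:**
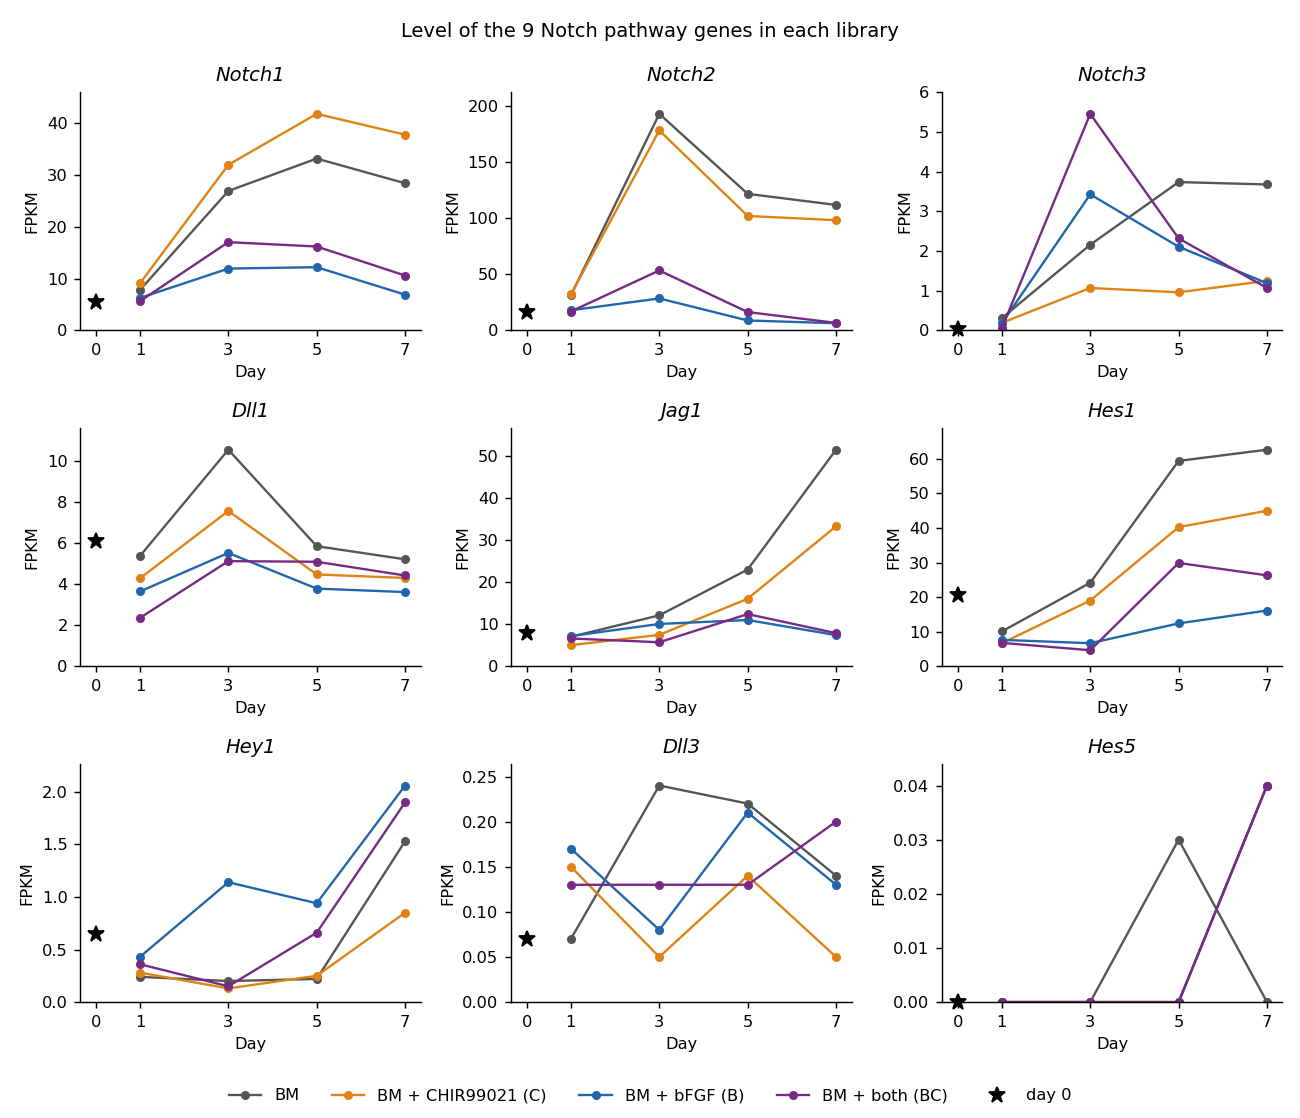
FPKM of each of the 9 genes (vertical axis, from 0, a scale of its own for each gene) against the day (horizontal axis); each point is 1 library, lines join libraries of one treatment, and the star is the day 0 library. Notch1 and Notch2 lie lower in B and BC than in BM and C from day 3 on, Jag1 parts by day 7, and Dll3 and Hes5 stay below an FPKM of 0.25; the Hes5 lines of B, C and BC coincide.

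Notch1 (gene 18128, chr2:26457902-26503822) stood at an FPKM of 5.49 on day 0. In BM it was at 7.80, 26.9, 33.2 and 28.4 on days 1, 3, 5 and 7, and in C at 9.08, 32.0, 41.8 and 37.8. In B it was at 6.26, 11.9, 12.2 and 6.90, and in BC at 5.64, 17.03, 16.2 and 10.6. The groups with and without bFGF did not overlap on any day. The log2 fold change with bFGF was -0.92 ± 0.07 (SE) over the days (adjusted p = 1.41e-07, edgeR). It was -0.40 on day 1, which did not pass (adjusted p = 0.108, edgeR), and -0.94, -0.96 and -1.38 on days 3, 5 and 7, which did. Unlike Notch2, Notch1 in B and BC on day 7 was above the day 0 level. The ratio of Notch2 to Notch1 FPKM was 3.05 on day 0 and reached 7.17 in BM on day 3, and in B and BC on day 7 it was 0.923 and 0.634. Notch2 thus held 86.9% of the summed FPKM of the 3 receptors in BM on day 3 and 36.5% in BC on day 7.

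**Figure D2:**
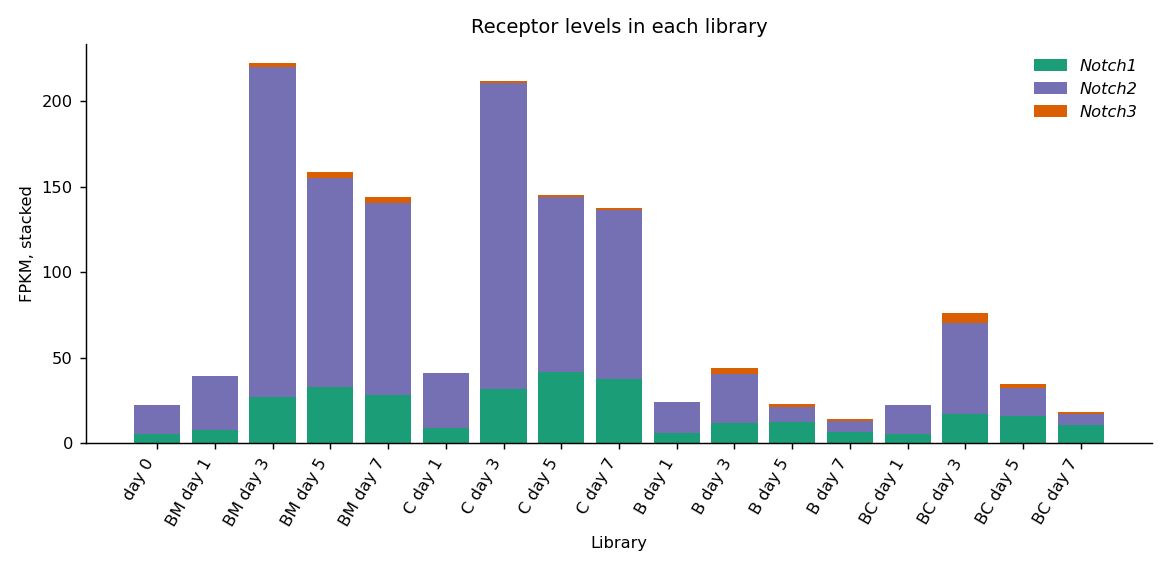
FPKM of Notch1, Notch2 and Notch3 stacked from 0 for each of the 17 libraries. Notch2 makes up most of each bar without bFGF, and in B and BC on days 5 and 7 it makes up less than 50% of the bar.

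Both receptors have long transcripts, 9497 bases for Notch1 and 10506 for Notch2 in the deposited tables. Among the 409 tested genes with transcripts of at least 8000 bases, the median log2 fold change with bFGF on day 7 was -0.45, with quartiles of -1.17 and 0.20, against 0.01 for shorter ones. Of these long genes 56.2% were called lower on day 7, against 39.0% of the shorter ones. Notch2 ranked 11 from the lowest among the 409 on day 7 and Notch1 ranked 78. The part of transcript length in the receptor result was not tested.

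Notch3 (gene 18131, chr17:32120820-32166896) was a minor receptor by level, with an FPKM of 0.03 (4 counts) on day 0. In BM it was at 0.31, 2.16, 3.74 and 3.68 on days 1, 3, 5 and 7, and in C at 0.19, 1.07, 0.96 and 1.25. In B it was at 0.18, 3.43, 2.11 and 1.19, and in BC at 0.06, 5.46, 2.32 and 1.07. With bFGF it was highest on day 3 and in BM on day 5, so that the order of the groups turned over time: bFGF was above on day 3 and lay between BM and C on day 5. The log2 fold change with bFGF was 1.71 ± 0.48 (SE) on day 3 (adjusted p = 0.0110, edgeR). That call was lost without the BC or the C library of day 3, with adjusted p-values up to 0.159 by edgeR over the fits that leave out 1 library. Over all days the value was 0.21 (adjusted p = 0.545, edgeR), and it turned to -0.08 without TMM scaling.

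Among the ligands, Jag1 differed by day and Dll1 by little. Jag1 (gene 16449, chr2:137081451-137116520) stood at an FPKM of 7.85 on day 0. It was at 7.02, 12.1, 23.0 and 51.6 in BM on days 1, 3, 5 and 7, and at 5.02, 7.47, 16.1 and 33.3 in C. With bFGF it stayed at 7.19, 10.1, 11.0 and 7.41 in B and at 6.61, 5.71, 12.4 and 7.88 in BC. The groups overlapped on days 1 and 3 and were apart on days 5 and 7. The log2 fold change with bFGF was 0.29, -0.22 and -0.25 on days 1, 3 and 5, none of which passed. It was -1.87 ± 0.22 (SE) on day 7 (adjusted p = 6.20e-06, edgeR), 3.65-fold lower after TMM scaling. In FPKM the day 7 ratio was 0.144 for B to BM and 0.236 for BC to C. The day 5 value passed without TMM scaling and by limma, where it reached -0.71, and also without BC of that day, at -0.58, and lay at 0.05 without B of that day, which did not pass. Over all days it was -0.51 ± 0.11 (SE), with an adjusted p of 0.000781 by edgeR, a call lost in the model with additive terms for the day (adjusted p = 0.102, edgeR).

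Dll1 (gene 13388, chr17:15367354-15376932) stood at an FPKM of 6.12 on day 0, and at 5.38, 10.6, 5.86 and 5.22 in BM. It was at 4.29, 7.58, 4.48 and 4.31 in C, at 3.65, 5.53, 3.79 and 3.62 in B and at 2.36, 5.13, 5.10 and 4.43 in BC. In each medium the highest of the 4 days was day 3, in BC by little over day 5. On day 3 both libraries with bFGF lay below both without. The log2 fold change with bFGF was -0.66 ± 0.21 (SE) on day 3 (adjusted p = 0.0203, edgeR). This call was lost without any 1 of BM, B or BC of day 3, up to an adjusted p of 0.172 by edgeR. On days 5 and 7 the values of 0.25 and 0.29 did not pass and turned negative, to -0.19 and -0.25, without TMM scaling. Dll3 (gene 13389, chr7:28293555-28301785), a ligand that is known to act inside the cell, lay between 0.05 and 0.24 in the 17 libraries, from 2 to 9.28 counts, and was too low to compare. The ratio of Jag1 to Dll1 FPKM was 1.28 on day 0 and reached 9.88 in BM and 7.73 in C on day 7, against 2.05 in B and 1.78 in BC.

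Of the targets, Hes1 was the only one well above the floor of the tables. Hes1 (gene 15205, chr16:30065357-30067796) stood at an FPKM of 20.7 on day 0 and at 10.1, 24.2, 59.4 and 62.7 in BM. It was at 6.67, 19.0, 40.3 and 45.0 in C, at 7.64, 6.66, 12.4 and 16.1 in B and at 6.76, 4.63, 29.9 and 26.3 in BC. All 4 libraries of day 1 lay below the day 0 library, a difference with no replicate check. From day 3 the groups with and without bFGF did not overlap. The log2 fold change with bFGF was -0.90 ± 0.20 (SE) over the days (adjusted p = 0.00107, edgeR), and -1.84 ± 0.42 (SE) on day 3 (adjusted p = 0.00297, edgeR). On days 5 and 7 it was -0.80 on both, and these did not pass (adjusted p = 0.0688 and 0.0639, edgeR). Both passed without TMM scaling, with other filters and by limma, where they reached -1.34 and -1.36, but not by DESeq2. Leaving out 1 library, the day 5 value ran from -1.68 without BC of that day, which passed (adjusted p = 0.00145, edgeR), to -0.17 without B. The day 7 value ran from -1.35 without BC of that day, which passed, to -0.35 without B. On those days BC was above B, at 29.9 against 12.4 and 26.3 against 16.1.

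Hey1 and Hes5 were low. Hey1 (gene 15213, chr3:8663359-8667038) stood at an FPKM of 0.65 on day 0, at 0.24, 0.20, 0.22 and 1.53 in BM and at 0.28, 0.13, 0.25 and 0.85 in C. It was at 0.43, 1.14, 0.94 and 2.06 in B and at 0.36, 0.15, 0.66 and 1.90 in BC, with 5 to 81 counts a library. It was higher with bFGF in all 8 pairs of libraries that differed in bFGF only, by a mean of 0.39 ± 0.30 (SD, n = 8 pairs) in log2(FPKM + 1), and BC on day 3 lay below BM on that day. Hey1 missed the filter of a mean FPKM of 1 and was fitted only when all 18700 genes with counts were kept. In that fit its log2 fold change with bFGF was 1.53 ± 0.27 (SE), with an adjusted p of 6.62e-05 by edgeR. The direction in that fit was opposite to that of Hes1. How this Hey1 value depends on the processing was not tested, and some pairs rest on few counts, as BC and C on day 3 with 6 and 5. Hes5 (gene 15208, chr4:154960626-154962372) was listed in 4 of the 17 libraries, with 1 count in each, so no difference was detectable at this depth.

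Counted together, 6 of the 9 genes passed the filter and 3 (Dll3, Hes5 and Hey1) did not. Over days 1 to 7, 4 of the 6 were lower with bFGF (Notch1, Notch2, Jag1 and Hes1) and 0 were higher by edgeR. These counts stand against a background in which bFGF was called for 81.7% of the 11272 genes tested, 40.5% higher and 41.3% lower. The median log2 fold change of the 6 was -0.70, against -0.00334 over all genes tested. Without TMM scaling the median over all genes was -0.29, and 2779 genes were called higher and 6680 lower, in place of 4563 and 4650. On day 1 edgeR called 0 of the 6, although 3 had an unadjusted p under 0.05, DESeq2 called 1 and limma 0, and 10.7% of all genes were called by edgeR. On day 3 it called 4 lower and 1 higher, against 25.0% and 25.4% of all genes. On day 5 it called 2 lower against 38.6%, and on day 7 it called 3 lower against 39.6%.

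**Figure D3:**
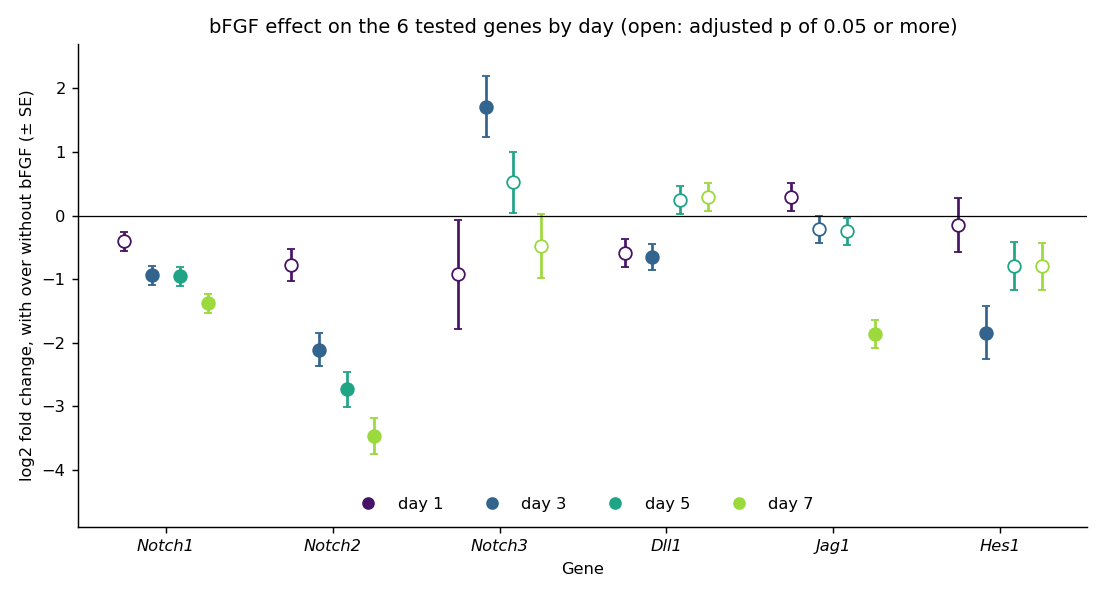
Fitted log2 fold change with over without bFGF (vertical axis) on days 1, 3, 5 and 7 for the 6 tested genes (horizontal axis); points are edgeR estimates from 2 libraries against 2, bars are 1 SE, and open points have an adjusted p of 0.05 or more. Notch2 runs from -0.78 on day 1 to -3.47 on day 7, Jag1 passes on day 7 alone among the 4 days, and Notch3 is above 0 and passes on day 3.

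The time course was then followed within each medium, by setting day 7 against day 1. Without bFGF, 5 of the 6 tested genes were higher on day 7, against 32.3% of all genes higher and 31.5% lower. Notch3 rose by 3.21 ± 0.60 (SE), Jag1 by 2.78 ± 0.23, Hes1 by 2.65 ± 0.40, Notch1 by 1.94 ± 0.15 and Notch2 by 1.71 ± 0.26 on the log2 scale, and their adjusted p-values by edgeR were at most 0.000554. Dll1 had a value of -0.02 and did not pass. In both BM and C, day 7 was above day 1 for each of the 5.

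With bFGF in the medium, 5 of the 6 rose and 1 fell, against 35.8% of all genes higher and 39.5% lower. Notch3 rose by 3.66 ± 0.70 (SE), Hes1 by 1.995 ± 0.408, Notch1 by 0.96 ± 0.15, Dll1 by 0.86 ± 0.23 and Jag1 by 0.62 ± 0.22, and Notch2 fell by 0.98 ± 0.26 on the log2 scale, all passing by edgeR. These values carry TMM scaling, and FPKM does not. In B, FPKM on days 1 and 7 was 6.26 and 6.90 for Notch1, 3.65 and 3.62 for Dll1 and 7.19 and 7.41 for Jag1. In BC it was 5.64 and 10.6, 2.36 and 4.43, and 6.61 and 7.88. Notch1 passed under every alternative, at values down to 0.46. The calls of Dll1 and Jag1 were lost without TMM scaling and by limma on FPKM. They were also lost without BC of day 7, Dll1 without BC of day 1 and Jag1 without B of day 1.

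The difference between these courses was tested directly, as the bFGF effect on day 7 minus that on day 1. It passed for 4 of the 6 genes by edgeR, against 65.4% of all genes. It was -2.69 ± 0.37 (SE) for Notch2 (adjusted p = 4.88e-05), -2.16 ± 0.31 for Jag1 (adjusted p = 7.21e-05), -0.98 ± 0.21 for Notch1 (adjusted p = 0.00137) and 0.88 ± 0.31 for Dll1 (adjusted p = 0.0249, all by edgeR). For Hes1 it was -0.65 ± 0.56 (adjusted p = 0.320) and for Notch3 0.45 ± 1.00 (adjusted p = 0.707, both by edgeR), so neither course was shown to depend on bFGF. These comparisons share their libraries, so they are set side by side and are not independent of each other.

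**Figure D4:**
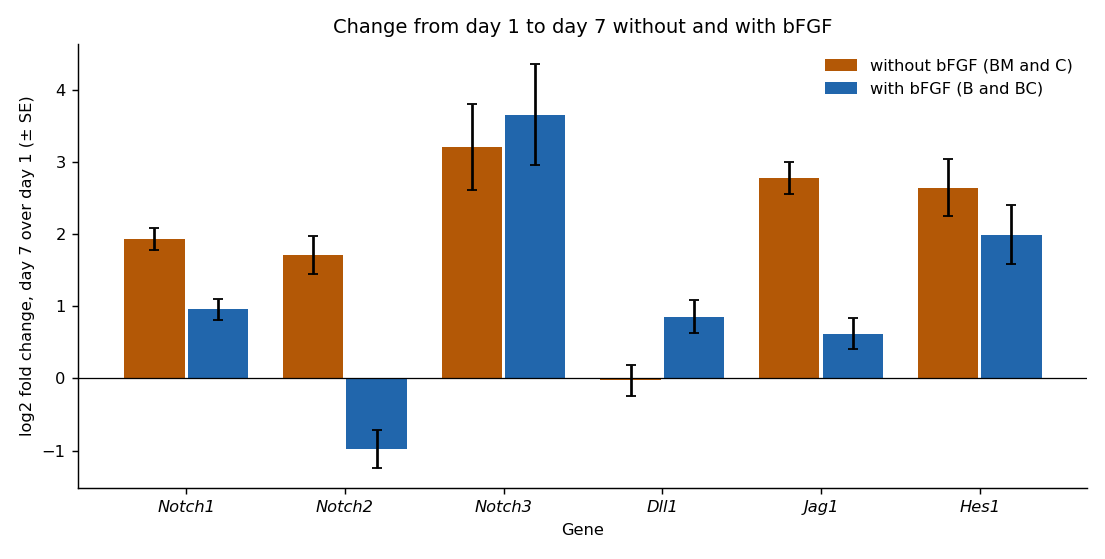
Fitted log2 fold change of day 7 over day 1 (vertical axis) for the 6 tested genes (horizontal axis), without bFGF (BM and C) and with bFGF (B and BC); bars start at 0 and error bars are 1 SE. Notch2 rises by 1.71 without bFGF and falls by 0.98 with it, Jag1 rises by 2.78 and 0.62, and Notch3 and Hes1 rise in both.

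CHIR99021 differences were smaller in fitted size than those with bFGF for Notch1, Notch2, Jag1 and Hes1, but not for Notch3 and Dll1. Notch3 was at -0.64 ± 0.27 (SE) with CHIR99021 (adjusted p = 0.120, edgeR) and Dll1 at -0.18 ± 0.11 (adjusted p = 0.267, edgeR), and neither passed. Over days 1 to 7, 1 of the 6 genes was higher with CHIR99021 and 1 lower, against 9.72% and 9.79% of all genes. Notch1 was higher by 0.33 ± 0.07 (SE) on the log2 scale (adjusted p = 0.00933, edgeR), and in 7 of the 8 pairs of libraries that differed in CHIR99021 only. B and BC on day 1 were the exception, at 6.26 and 5.64. Jag1 was at -0.37 ± 0.11 (SE) with an adjusted p of 0.0327 by edgeR and was lower in 6 of 8 pairs. The Jag1 call was lost in 10 of the 16 fits that left out 1 library, and both calls were lost in the model with additive terms for the day.

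CHIR99021 was also tested for a different effect with bFGF present. Of the 6 genes, 1 passed by edgeR, against 0.692% of all genes. Notch3 was lower in C than in BM on all 4 days, and in BC it was above B on days 3 and 5 and below it on days 1 and 7. Its interaction was 1.58 ± 0.30 (SE) on the log2 scale (adjusted p = 0.0365, edgeR), and it did not pass by limma or in 12 of the 16 fits that left out 1 library. For Hes1 the interaction was 0.91 ± 0.29 (SE), with an adjusted p of 0.193 by edgeR.

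The other genes of the pathway were taken from a list of 65, of which 64 were listed in at least 1 library and 48 were tested. With bFGF over days 1 to 7, 14 were higher, 27 were lower and 7 did not pass by edgeR, where 40.5% of all genes were called higher and 41.3% lower. The same shares stand behind the counts by role below, which are small and serve as description. Their median log2 fold change was -0.28, against -0.00334 over all genes. On day 1 there were 3 higher and 3 lower, against 6.21% and 4.46% of all genes, a count near the background. On day 7 there were 11 and 27, against 38.8% and 39.6%.

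Of the genes that act on the ligands, 3 of 4 ubiquitin ligases were higher with bFGF (Mib1, Mib2 and Neurl1b) and 0 were lower. The values of Mib1 and Mib2, 0.14 and 0.27, were smaller than the shift of 0.29 that TMM scaling makes in the median gene. In log2(FPKM + 1), Mib1 was lower with bFGF in 5 of the 8 pairs, with a mean difference of -0.14. Mib2 was higher in 5 of the 8, with a mean of 0.04. These ligases drive the uptake of bound ligand that pulls on the receptor. Neurl1b had the largest value in the whole list, 2.73 ± 0.12 (SE) on the log2 scale with an adjusted p of 8.98e-10 by edgeR. It stood at an FPKM of 2.62 on day 0, at 0.72 and 0.61 in BM and C on day 7, and at 7.46 and 5.74 in B and BC on that day. Dll4, a ligand best known from blood vessels, was listed at 0.03 on day 0 and did not pass the filter. It lay between 0.06 and 0.26 without bFGF and between 0.11 and 1.13 with it, and was higher with bFGF in all 8 pairs. The receptor Notch4 of the same list also missed the filter. It went the other way, lower with bFGF in all 8 pairs, with a mean difference of -0.17 in log2(FPKM + 1). Of the 6 endothelial markers 1 reached an FPKM of 1, Kdr at 1.27 in C on day 5. Pecam1, Cdh5, Tek and Emcn stayed below 1, and Cldn5 was listed in 0 libraries. The endothelial sum was 0.12 to 1.34 without bFGF and 0.03 to 0.20 with it, and the part of these markers in the Dll4 values was not tested.

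Of the genes that modify the receptor, all 4 glycosylation enzymes tested were lower with bFGF (Pofut1, Poglut1, Lfng and Rfng), with a median of -0.93. Pofut1 and Poglut1 add the first sugars to the receptor and the Fringe enzymes Lfng and Rfng extend them, which tunes the choice of ligand. Lfng was at an FPKM of 4.23 and 5.97 in BM and C on day 7 and at 0.93 and 0.84 in B and BC. Its log2 fold change over the days was -1.12 ± 0.12 (SE), with an adjusted p of 2.56e-06 by edgeR.

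Of the 9 receptor cleavage genes tested, 5 were lower, Adam10, Furin and Psen2 among them, and 1 was higher (Psenen, a γ-secretase subunit). Psen2, a catalytic subunit of γ-secretase, had the largest difference among them at -1.503 ± 0.108 (SE), with an adjusted p of 5.23e-08 by edgeR. It stood at 17.4 and 18.4 in BM and C on day 7 and at 1.86 and 2.09 in B and BC. Of the 8 genes of receptor turnover and inhibition tested, 2 were higher and 5 lower. Dtx4, a Deltex ubiquitin ligase, was lower with bFGF, at -2.03 ± 0.06 (SE, adjusted p = 1.67e-10, edgeR), at 67.6 and 68.4 in BM and C on day 7 and at 10.5 and 7.41 in B and BC. It was among the 3 genes of the list already lower on day 1, at 34.01 and 28.7 against 15.2 and 13.8.

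In the nucleus, Rbpj, the DNA-binding partner of the cleaved receptor, was higher with bFGF, the direction opposite to Notch1 and Notch2. Rbpj stood at an FPKM of 77.2 on day 0. It was at 81.3, 56.9, 35.5 and 38.8 in BM on days 1, 3, 5 and 7 and at 55.4, 40.2, 26.2 and 27.0 in C. In B it was at 127, 183, 140 and 109, and in BC at 110, 104, 133 and 90.8. The groups did not overlap on any day, and the log2 fold change with bFGF was 1.85 ± 0.08 (SE, adjusted p = 6.85e-10, edgeR). Without bFGF, Rbpj fell by 1.04 ± 0.15 (SE) from day 1 to day 7 (adjusted p = 8.72e-05, edgeR). Mouse Rbpj has processed pseudogenes, so reads may have been split between copies and its level is uncertain.

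Of the 9 genes of the nuclear complex 4 were higher with bFGF and 5 lower, close to the shares of all genes. Ep300, a histone acetyltransferase, was lower, at -1.02 ± 0.06 (SE, adjusted p = 1.81e-08, edgeR). Of the 11 corepressors, 3 were higher and 8 lower. Some genes counted as higher in these roles did not lie higher in FPKM, which carries no TMM scaling. Over the 8 pairs of libraries that differed in bFGF only, Snw1 was lower with bFGF in 7, Hdac2 in 6 and Kat2a in 4. Their mean differences in log2(FPKM + 1) were -0.14, -0.13 and -0.11. Tle1 was higher by 0.52 ± 0.05 (SE, adjusted p = 2.78e-07, edgeR) and Tle2, of the same Groucho family of Hes partners, was at -1.51 ± 0.19 (SE, adjusted p = 7.21e-06, edgeR). Tle2 was also the 1 gene of the list with a called interaction of bFGF and CHIR99021. Hes7, a further Hes repressor, was higher with bFGF by 0.93 ± 0.16 (SE, adjusted p = 0.000133, edgeR), and Hes6 was at -0.15 and did not pass. The proneural factors Neurog2, Atoh7 and Neurod1, which Hes repressors hold down, were listed at no more than 0.12 in any library.

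**Figure D5:**
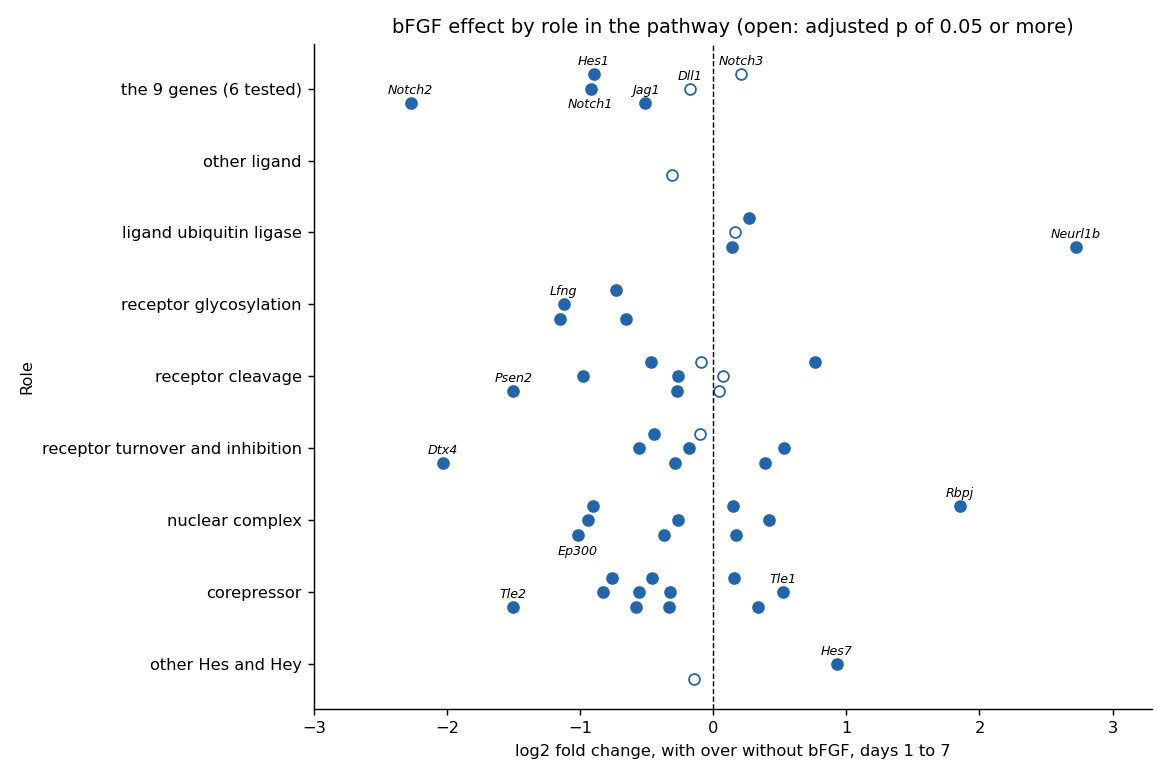
Fitted log2 fold change with over without bFGF over days 1 to 7 (horizontal axis) for the 6 tested genes of the 9 and the 48 tested genes of the pathway list, by role (vertical axis); each point is 1 gene, open points have an adjusted p of 0.05 or more, and the dashed line is the median of all genes tested. The 4 glycosylation enzymes lie below 0, and Neurl1b and Rbpj lie highest at 2.73 and 1.85.

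From day 1 to day 7 without bFGF, 18 of the 48 rose and 7 fell by edgeR, against 32.3% and 31.5% of all genes. Among the largest rises were those of Tle2 (2.50), Psen2 (1.23), Dtx4 (1.08) and Dtx3 (0.86), and the largest falls in Dlk2 (-2.91), Neurl1b (-2.29), Rbpj (-1.04), Kat2a (-0.91) and Ctbp1 (-0.43), all in log2. Dlk2, a Delta-like protein that lacks the receptor-activating domain, fell with bFGF too, by 3.00. With bFGF, 12 of the 48 rose and 26 fell, against 35.8% and 39.5%.

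Some markers of other cells differed with bFGF in the same direction as Notch1, Notch2 and Jag1. The summed FPKM of 6 pericyte and smooth muscle markers was 28.5 on day 0, 35.8 to 479.9 without bFGF and 8.94 to 40.9 with it. Acta2 and Pdgfrb made up these sums, and Rgs5, Cspg4, Myh11 and Kcnj8 stayed below 1 in all libraries. The sum of 5 fibroblast markers was 2.68 to 55.8 without bFGF and 1.59 to 6.85 with it, and Lum stayed below 1. For both sums the ranges with and without bFGF overlapped, as they did for 2 further lists. The 7 Müller glia markers summed to 1455 to 2724 without bFGF and 1667 to 4399.5 with it, and the 6 microglia markers to 0.08 to 0.72 and 0.15 to 2.52. Of the Müller glia markers, Rlbp1, Slc1a3 and Kcnj10 stayed below 1 in all libraries, and of the microglia markers only Cx3cr1 reached 1. The part of these markers in the Notch results was not tested.

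The genes with the most similar pattern to each of the 9 were sought by Pearson r of log2(FPKM + 1) over the 17 libraries, with genes of a mean FPKM under 1 left out. For Notch2 they were Tmem2 (r = 0.995) and Gas1 (r = 0.987), and for Notch1 they were Serinc5 (r = 0.984) and Plod1 (r = 0.983). For Notch3 they were Tcea3 (r = 0.915) and Smagp (r = 0.914), and for Dll1 Coa6 (r = 0.820) and Pan3 (r = 0.813). Foxs1 (r = 0.945) and Cdh15 (r = 0.930) were most like Jag1, Rcn2 (r = 0.920) and Polr2l (r = 0.902) most like Hes1, and Arpc2 (r = 0.863) and Lce1g (r = 0.834) most like Hey1. Between members, r was 0.82 for Notch1 with Notch2 and 0.82 for Jag1 with Hes1. The libraries share the bFGF contrast and the time course, so these values describe the 17 libraries only.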

How the data were processed

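RNA of mNRPCs was poly-A selected and sequenced by the authors on the BGISEQ-500 platform. The authors deposited, for each gene and library, an expected count (an estimated read number that need not be whole), an FPKM value and a transcript length. The paper names Bowtie 2, eXpress for FPKM and DESeq. The submitters' processing notes name Bowtie2, RSEM and mm10, and which of eXpress and RSEM made the values is not settled here. Strand use is not given in the sources used here. The lowest FPKM in the deposited tables was 0.01, and genes missing from a library were given 0 there.

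Treatment and day were taken from the sample labels. Expected counts were rounded and fitted with edgeR 4.0.16 in R 4.3.3 (TMM, glmQLFit, glmQLFTest, Benjamini-Hochberg over all genes tested, threshold 0.05) in the 16 cultured libraries, with a mean for each day with and without bFGF and an additive CHIR99021 term, which left 7 residual degrees of freedom. Genes needed a mean FPKM of at least 1, which left 11272. A further model added the product of bFGF and CHIR99021. The biological coefficient of variation was 10.0%. The day 0 library had no replicate and entered no test. Alternatives were no TMM, DESeq2 1.42.0, limma 3.58.1 on log2(FPKM + 1) and log2(FPKM + 0.1), other filters, other model terms, single days, and leaving out each library. The scripts were tested on simulated data.

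The 9 genes, the pathway list and the marker lists were chosen with earlier results of these data known. Pathway genes were named by rule: in each direction, the 5 called genes of largest effect for bFGF, the same way in all 8 pairs, and likewise for day 7 against day 1 without bFGF; members of lists of up to 5 genes could be named too. Dll4, Hes6, Hes7, Psenen, Dlk2 with bFGF and the remaining genes named in counts were chosen after their values were seen. Some genes of the lists are not reported by name here.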

Additional observations from a re-analysis of the deposited data

Results flagged for a closer look

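The bFGF effect on 4 of the genes differed between day 7 and day 1 by edgeR's test of the difference itself. The difference was -2.69 on the log2 scale for Notch2, -2.16 for Jag1, -0.98 for Notch1 and 0.88 for Dll1. The Dll1 difference did not pass without TMM scaling, by limma, or in 4 of the fits that left out 1 library.

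The effect of CHIR99021 on Notch3 differed with and without bFGF, with an interaction of 1.58 on the log2 scale by edgeR. It did not pass by limma or in 12 of the 16 fits that left out 1 library. Notch3 was at an FPKM of 3.68 in BM and 1.25 in C on day 7, and at 1.19 in B and 1.07 in BC.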

How the results depend on the processing

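Of 32 effects on the 6 tested genes that passed by edgeR, 23 kept their direction and passed under every alternative run, 9 no longer passed under at least 1, and 0 changed direction. Of 28 that did not pass, 12 changed direction under at least 1. With 1 library left out in turn, the number of genes called ranged from 4 to 5 for bFGF over the days, 0 to 1 on day 1, 3 to 5 on day 3, 2 to 4 on day 5, 3 to 4 on day 7, 1 to 2 for CHIR99021 and 0 to 2 for the interaction. On day 1 DESeq2 and the fit without a filter called 1 gene and the libraries of that day alone 2, in place of 0. On day 5, 4 were called without TMM, without a filter and by limma with either pseudocount, in place of 2. On day 7, 5 were called without a filter and in the libraries of that day alone, in place of 3. For CHIR99021, 0 were called with additive terms and 1 without day 1, in place of 2. For the interaction, 0 were called with a mean FPKM of at least 5, a filter that removes Notch3, and by limma with either pseudocount, in place of 1. The cause was not tested for the others.

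Directions changed only for values that did not pass. Without TMM, Notch3 over the days was -0.0794, and its bFGF effect on day 7 against day 1 was -0.00727, or -0.45 and -0.17 by limma with a pseudocount of 1 and 0.1. Dll1 was -0.19 on day 5 and -0.25 on day 7 without TMM, and by limma -0.18 and -0.22 on day 5 and -0.20 and -0.24 on day 7. Hes1 with CHIR99021 was 0.0150 without day 1. With 1 library left out in turn, the bFGF effect ranged from -0.43 to 0.14 for Hes1 on day 1, from -0.50 to 0.0183 for Jag1 on day 3 and from -0.58 to 0.0452 for it on day 5. For Dll1 it ranged from -0.11 to 0.56 on day 5 and from -0.0234 to 0.58 on day 7, and for Notch3 from -0.10 to 1.43 on day 5 and from -0.95 to 0.13 on day 7. Over the same fits, Dll1 on day 7 against day 1 without bFGF ranged from -0.14 to 0.0245, Hes1 with CHIR99021 from -0.26 to 0.0106 and the Notch1 interaction from -0.0655 to 0.20.

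Each treatment and day had 1 library, and no culture was repeated. Depth limited Dll3, Hes5 and Hey1, with at most 9.28, 1 and 81 counts a library.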
